A study of Mus musculus with 6 samples.

Results

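The genes described here are 36 mouse genes of the YAP-TEAD and SRF-actin pathways: 16 on the YAP-TEAD side and 20 on the SRF-actin side. They were chosen by symbol, and each array probe was given to a gene through the RefSeq transcript that the array design names for it. Probes of 22911 genes could be named in this way, all 36 genes among them, and 15069 genes had a probe bright enough to be tested. The arrays came from C8D1A cells, a cloned mouse astrocyte line, in 2 groups of 3: untreated controls and cells given pulsed radiofrequency (PRF), short bursts of radiofrequency current used in pain medicine. Cells of both groups had been cultured for 6 days in medium with 10% serum and for 24 h without serum before the experiment. For the PRF exposure, the labels used here give no strength, duration or delay before harvest. The 3 replicates were independent experiments, but all are cultures of a single cloned line, without the neurons and vessels that surround astrocytes in tissue. The question was which of these mechanically and growth factor sensitive genes differed between PRF-treated and untreated astrocytes.

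YAP (Yap1) and its relative TAZ (Wwtr1) are coactivators that cannot bind DNA themselves. When the Hippo kinases LATS1 and LATS2 are inactive, YAP and TAZ enter the nucleus and bind TEAD transcription factors, and genes such as Ccn1, Ccn2, Ankrd1 and Amotl2 are switched on. Serum response factor (SRF) binds a DNA element called the CArG box, together with myocardin-related factors (MRTFs, encoded by Mkl1 and Mkl2) that are held in the cytoplasm by free actin, or with ternary complex factors (Elk1, Elk3, Elk4) that answer to MAP kinase signals. Its targets include actins, tropomyosins, calponins and vinculin. In astrocytes both pathways are known for answering to cell shape, stiffness and injury.

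Levels are log2 processed signals relative to the 75th percentile of the same array, so 0 is the brightness of a probe at that percentile. A change is the mean of the 3 PRF arrays minus the mean of the 3 control arrays on that scale. A gene was called when limma's moderated test across all tested probes gave a Benjamini-Hochberg adjusted p under 0.05. Where a gene had several probes, the brightest tested one stands for it. Since levels of different probes depend on the probe sequence, they are compared between arrays only, never between genes. In RNA from whole cultures, fewer cells of a type and less RNA per cell cannot be told apart.

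The 6 arrays lay on 1 slide, and between 59.5% and 63.9% of probes were well above background. Of 11 astrocyte markers, 9 were measured; Slc1a3 and Gja1, a glutamate transporter and a gap junction protein typical of astrocytes, did not reach the mark for well above background on any of the arrays. Glul, the glutamine synthetase gene, was the only astrocyte marker called (higher by 0.29, SE 0.06, adjusted p = 0.0177). This is a call of its brightest probe only. Its further probes changed by 0.01 and -0.02 (adjusted p = 0.966 and 0.822). Because Acta2, Tagln and Cnn1 are also smooth muscle genes, markers of that type were read too. Myh11, Rgs5 and Lmod1 did not reach the mark for well above background on any of the arrays, Pdgfrb and Smtn fell by 0.32 and 0.34, Des and Cspg4 changed by 0.38 and 0.37 without a call, and the summed linear level of the 7 markers ran from 6.33 to 6.74 on control arrays and from 5.07 to 5.63 on PRF arrays. Of 5 fibroblast markers, Col1a1 and Col1a2 rose, Pdgfra (-0.67, adjusted p = 0.0706) and Dcn (0.34) were not called, Lum did not reach that mark on any of them, and the summed level ran from 0.289 to 0.378 in controls and from 0.537 to 0.557 after PRF. The summed levels of the astrocyte, endothelial and oligodendrocyte markers also lay higher on all PRF arrays (162.2 to 175 against 185 to 190.1, 0.139 to 0.144 against 0.169 to 0.189, and 64.0 to 69.9 against 73.5 to 79.8). Such a sum follows its brightest probes and does not show that a whole marker list shifted. For astrocytes these were Vim and S100b (control means 6.72 and 5.89), neither called. For smooth muscle they were Smtn and Pdgfrb (1.91 and 1.34). Among endothelial, neuron and oligodendrocyte markers Kdr, Snap25 and Mbp rose and Mog fell, while Cdh5, Cldn5, Rbfox3 and the microglial Aif1, Cx3cr1 and P2ry12 did not reach the mark for well above background on any of the arrays. Kdr and Col1a2 rose from control signals at or near background and were tested through the PRF arrays alone. Kdr reached that mark on 0 control arrays and Col1a2 on 1, and both on all 3 PRF arrays. The microglial Tmem119 and Csf1r, the endothelial Pecam1 and the neuronal Tubb3 and Map2 did reach it on all 6 arrays. None of them was called on its brightest probe, but a second Csf1r probe fell by 0.30 (adjusted p = 0.0180). The part of these shifts in the results below was not tested.

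After PRF, several target genes of YAP and TEAD were higher, among them Ccn1, Ccn2, Amotl2 and Ankrd1, while most actin cytoskeleton genes were not called. Of the 16 YAP-TEAD genes 7 rose and 0 fell, against 16.3% of all tested genes called higher and 13.5% called lower. The genes were chosen with earlier results of these data known, so these shares are a description and not a test. All 4 members of the whole set that rose by at least 2-fold, Ccn1, Ccn2, Amotl2 and Ankrd1, were on this side; 8.06% of tested genes passed that mark. Of the 20 SRF-actin genes 2 rose and 2 fell, a share of 10.0% in each direction that lies below the background of calls. None of the 36 fell by 1.5-fold or more, as 3.27% of tested genes did. The median change was 0.18 on the YAP-TEAD side and 0.02 on the SRF-actin side, with -0.01 over all tested genes. Over both sides, 9 genes rose and 2 fell, against 29.8% of tested genes called in either direction. The difference between the sides was not tested. Their medians lay 0.16 apart, 0.31 apart within the first array row of the slide and in the other order within the second (-0.08). Scaling shifted all genes together: left unscaled, the medians were 0.04 and -0.12 with -0.15 over all genes, and scaled on spike-in probes -0.01 and -0.17 with -0.19. Over all probes, 59.2% of calls were higher, against 38.3% unscaled, 41.4% with quantile normalization and 28.7% on spike-ins. Leaving out PRF 2 brought the YAP-TEAD median to 0.01, with 0.02 on the SRF-actin side, so that the order of the sides turned (-0.01). Tead4, 1 of the genes beside the YAP-TEAD median of all arrays, stood high on PRF 2 alone. With the mean of a gene's tested probes, the medians lay 0.06 apart.

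**Figure D1:**
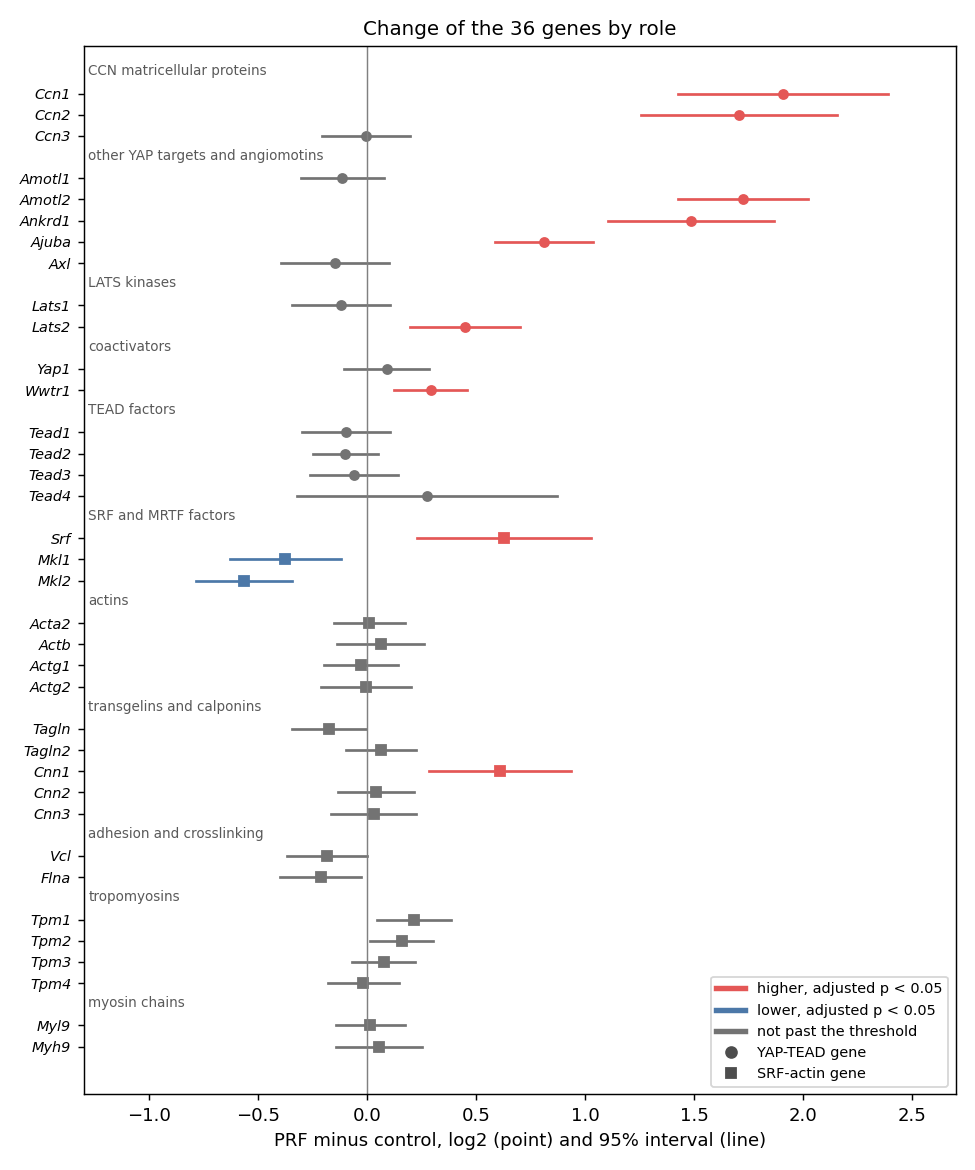
Change in each of the 36 genes (PRF minus control, log2, horizontal axis; point) with its 95% confidence interval (line), grouped by role; circles are YAP-TEAD genes, squares SRF-actin genes, and red, blue and grey mark genes called higher, called lower and not called. Ccn1 lies farthest to the right at 1.91, next to Amotl2, Ccn2 and Ankrd1, while the actins and myosins sit near 0.

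Of the 3 genes for secreted CCN proteins 2 rose, and Ccn1 had the largest change of the 36 genes. Ccn1 (also Cyr61), a matricellular protein that binds integrins and is a standard readout of YAP activity, had levels of 1.5, 1.10 and 1.05 on control arrays 1 to 3 and of 3.46, 3.12 and 2.79 on PRF arrays 1 to 3. Every PRF array was above every control array, and the lowest PRF value exceeded the highest control value by more than the range within either group. The change was 1.91 (SE 0.20, 95% interval 1.43 to 2.39, n = 3 per group, adjusted p = 0.0012), or 3.75-fold. Ccn2 (also Ctgf), its close relative and an inducer of matrix production, read 3.09, 2.63 and 2.5 in controls and 4.60, 4.56 and 4.18 after PRF. Again the groups did not overlap, and the change of 1.71 (SE 0.19, 1.26 to 2.16, adjusted p = 0.0014) was 3.26-fold. The third CCN gene, Ccn3 (also Nov), is not a typical YAP target and in several cell types opposes the actions of Ccn2. Its levels were 1.0, 1.07 and 0.92 in controls and 0.88, 1.01 and 1.10 after PRF. These ranges overlapped, and the interval of its change (-0.21 to 0.20, adjusted p = 0.973) leaves room for a difference of at most 1.15-fold.

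Amotl2, a scaffold of the angiomotin family that binds YAP at junctions and is itself a YAP target, had the smallest adjusted p of the 36 genes. Its levels were 0.70, 0.55 and 0.59 in controls and 2.58, 2.30 and 2.13 after PRF. The control arrays lay close together, and every PRF array was far above them. The change was 1.72 (SE 0.12, 1.42 to 2.02, adjusted p = 3e-04), or 3.30-fold. Its relative Amotl1 read -0.66, -0.80 and -0.73 in controls and -0.95, -0.77 and -0.81 after PRF, a change of -0.11 (-0.30 to 0.07, adjusted p = 0.309).

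Ankrd1, a muscle ankyrin repeat protein and a classic TEAD target, was dim in controls at -3.07, -3.05 and -2.98. After PRF it read -1.19, -1.67 and -1.79. The probe was well above background on all 6 arrays, and the lowest PRF array was still more than 1 log2 unit above the highest control. The change was 1.49 (SE 0.16, 1.10 to 1.87, adjusted p = 0.0013), or 2.80-fold. Ajuba, a LIM domain protein that binds LATS kinases and restrains them, read 0.35, 0.26 and 0.06 in controls and 1.12, 0.98 and 1.01 after PRF. Its groups did not overlap either, with a smaller change of 0.81 (SE 0.09, 0.59 to 1.04, adjusted p = 0.0017), or 1.76-fold. The receptor tyrosine kinase Axl, a YAP target in many epithelial and tumour cells, went the other way within its error: 7.24, 7.27 and 7.31 in controls, and 6.91, 7.24 and 7.22 after PRF. Its change was -0.15 (-0.40 to 0.10, adjusted p = 0.312), with PRF 1 the lowest array.

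**Figure D2:**
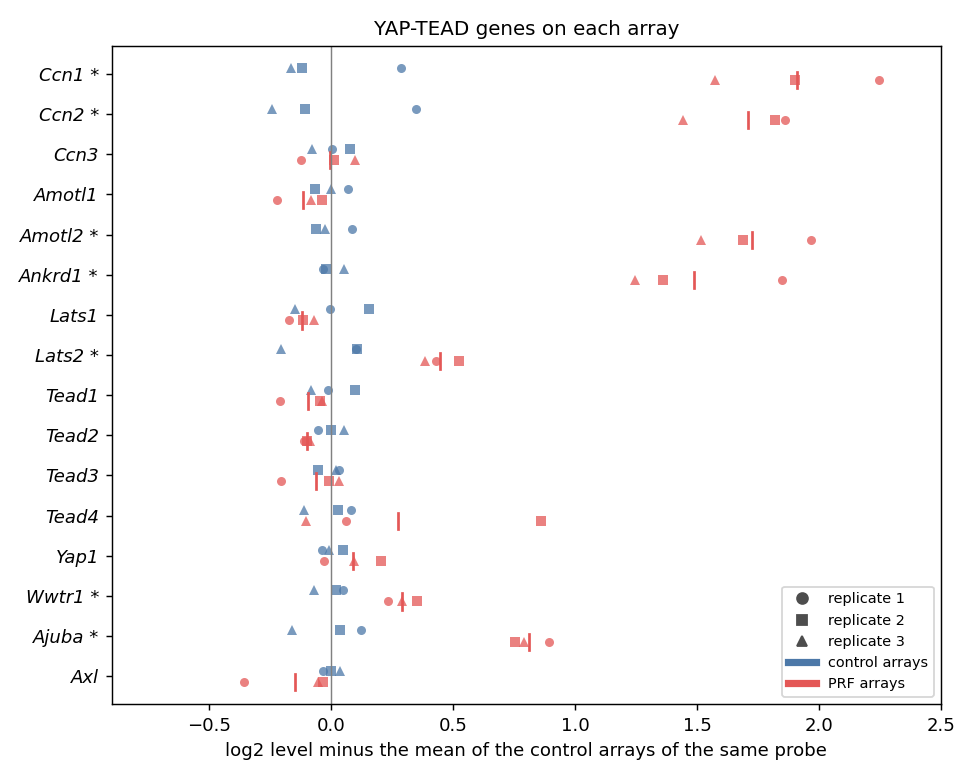
Level of each YAP-TEAD gene (rows) on each array, as the log2 level minus the mean of the 3 control arrays of the same probe (horizontal axis); symbols are replicates, blue control and red PRF arrays, the red stroke is the PRF mean and an asterisk marks a called gene. In Ccn1, Ccn2, Amotl2, Ankrd1 and Ajuba all 3 PRF points stand clear to the right of the control points, and in Tead4 a single PRF point does.

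These 5 genes had changes of much the same size in both array rows of the slide. Within array row 1 (Control 1, Control 3, PRF 2) the changes were 1.84 for Ccn1, 1.77 for Ccn2, 1.66 for Amotl2, 1.35 for Ankrd1 and 0.77 for Ajuba. Within row 2 (Control 2, PRF 1, PRF 3) they were 2.03, 1.76, 1.80, 1.57 and 0.81. With 3 arrays per fit, the calls for Ccn2 and Ajuba were missed in row 1 and all 5 in row 2, where 161 probes in all were called higher. Outside the fits within a row, all 5 stayed called under every alternative run, including each array left out.

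On the kinase level, Lats2 rose and Lats1 did not pass the test. Lats2, which phosphorylates YAP for retention in the cytoplasm and is itself induced by YAP, read 1.88, 1.88 and 1.57 in controls and 2.21, 2.30 and 2.16 after PRF. Every PRF array was above every control, with Control 3 the lowest of the 6. The change was 0.45 (SE 0.10, 0.19 to 0.70, adjusted p = 0.0211), and the other 2 probes of Lats2 rose as well, by 0.45 and 0.35 (adjusted p = 0.0067 and 0.0392). Lats1 read 1.91, 2.07 and 1.76 in controls and 1.74, 1.80 and 1.84 after PRF, with a change of -0.12 (-0.34 to 0.10, adjusted p = 0.367). The Lats2 call was lost when arrays were left unscaled (0.31) or scaled on spike-in probes (0.26), with array row as a block, and without PRF 1 or without PRF 2.

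Of the coactivators, Wwtr1 rose by 0.29 (SE 0.07, 0.12 to 0.46, adjusted p = 0.0221), or 1.22-fold, from 4.55, 4.52 and 4.43 to 4.73, 4.85 and 4.79. The groups did not overlap, but the rise is the smallest of the called genes. It was not called when arrays were left unscaled (0.15) or scaled on spike-ins (0.10), nor without Control 2, Control 3 or PRF 2. Yap1 read 4.31, 4.40 and 4.34 in controls and 4.32, 4.56 and 4.45 after PRF, a change of 0.09 (-0.11 to 0.29, adjusted p = 0.438). The groups of Yap1 overlapped.

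None of the 4 TEAD genes, which encode the DNA-binding partners, was called. Tead1 changed by -0.10 (-0.30 to 0.10), Tead2 by -0.10 (-0.25 to 0.05) and Tead3 by -0.06 (-0.26 to 0.14), with adjusted p from 0.265 to 0.617. A dimmer Tead1 probe went the other way, by 0.34 (0.05 to 0.64, adjusted p = 0.0764), without overlap of the groups. A further Tead1 probe changed by 0.08. Tead2 was called lower, at -0.29, when arrays were scaled on spike-in probes; on that scale the median of all tested genes was itself at -0.19. Tead4 had the widest spread of all 36 genes. Its levels were -0.56, -0.61 and -0.75 in controls and -0.58, 0.22 and -0.74 after PRF, so that PRF 2 alone stood high and the other PRF arrays lay within the control range. The second, dimmer probe of Tead4 was also highest on PRF 2 (-4.00, with -5.15 on PRF 1 and -4.68 on PRF 3).

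The promoters of the YAP-TEAD genes are shown because TEAD factors bind the element GGAATG, and the genes that rose can be set beside those that did not. RefSeq promoter windows (GRCm38.p6, 250 bases before the transcript start) were at hand for 12 of the 16 genes; Ccn2, Ccn3, Tead1 and Tead4 had none. GGAATG was searched on both strands, so it also appears as CATTCC, and it lay in the windows of 8 of the 12 genes, against 13.1% of the tested genes with a window. The genes were listed as members of this pathway, so the higher share is no test. It was present in 5 of 6 genes that rose and in 3 of 6 uncalled genes (Tead3, Yap1 and Axl). Lats2 rose without it in its windows. The stretches of the 5 genes that rose are given 5′ to 3′ on the strand of the gene, with the element in capitals:
Ccn1, chr3:145650058-145650113, minus strand: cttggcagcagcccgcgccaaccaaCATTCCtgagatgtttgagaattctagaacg
Amotl2, chr9:102717714-102717769, plus strand: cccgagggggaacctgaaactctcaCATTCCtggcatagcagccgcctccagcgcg
Ankrd1, chr19:36120024-36120079, minus strand: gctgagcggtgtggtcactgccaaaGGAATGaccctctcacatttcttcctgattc
Ankrd1, chr19:36119937-36119992, minus strand: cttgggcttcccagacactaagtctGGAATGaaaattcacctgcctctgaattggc
Ajuba, chr14:54577795-54577872, minus strand: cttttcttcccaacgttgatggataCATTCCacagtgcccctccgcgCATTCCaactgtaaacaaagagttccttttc
Wwtr1, chr3:57576016-57576071, minus strand: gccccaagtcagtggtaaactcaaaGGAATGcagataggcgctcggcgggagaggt
Ankrd1 and Ajuba hold the element at 2 places each, and the uncalled Tead3 holds 2 within a single window. The uncalled Tagln2 of the SRF-actin side also holds it at 2 places. A match of letters is a description of the sequence and does not show that a factor binds there.

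The SRF-actin genes showed a different picture, with changes in the factors and few in the cytoskeletal genes. On the probes that stand for the genes, Srf rose and both MRTF genes fell, but the probes of Mkl2 disagreed. Srf read 2.22, 2.07 and 1.77 in controls and 2.90, 2.64 and 2.40 after PRF. Each PRF array was above all controls, although the gap between the groups (Control 1 to PRF 3) was smaller than the spread within either. The change was 0.63 (SE 0.17, 0.23 to 1.03, adjusted p = 0.0315), or 1.54-fold. It stayed between 0.44 and 0.75 over 19 alternatives but was called in only 9 of them, and was lost without Control 2, Control 3, PRF 1 or PRF 2.

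Mkl1, which encodes MRTF-A, read 3.06, 3.14 and 2.99 in controls and 2.52, 2.67 and 2.88 after PRF. It fell by 0.38 (SE 0.11, interval -0.63 to -0.12, adjusted p = 0.0388), or 1.30-fold, without overlap of the groups. The call was lost in 10 of 19 alternatives, among them each single array left out except PRF 3. Mkl2, which encodes MRTF-B, read 2.48, 2.49 and 2.55 in controls and 1.78, 1.97 and 2.08 after PRF, and fell by 0.56 (SE 0.09, interval -0.78 to -0.35, adjusted p = 0.0057), or 1.48-fold. Its groups lay well apart on this probe, but the 3 tested probes of Mkl2 disagreed. A dim probe of another transcript rose by 1.37 (SE 0.19, adjusted p = 0.0033), from -3.80, -4.49 and -4.42 to -2.78, -2.83 and -2.98. The remaining probe changed by -0.25 (adjusted p = 0.168). With the mean of the 3 probes, the change in Mkl2 was 0.19 and not called, so the fall is a call of the brightest probe only.

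**Figure D3:**
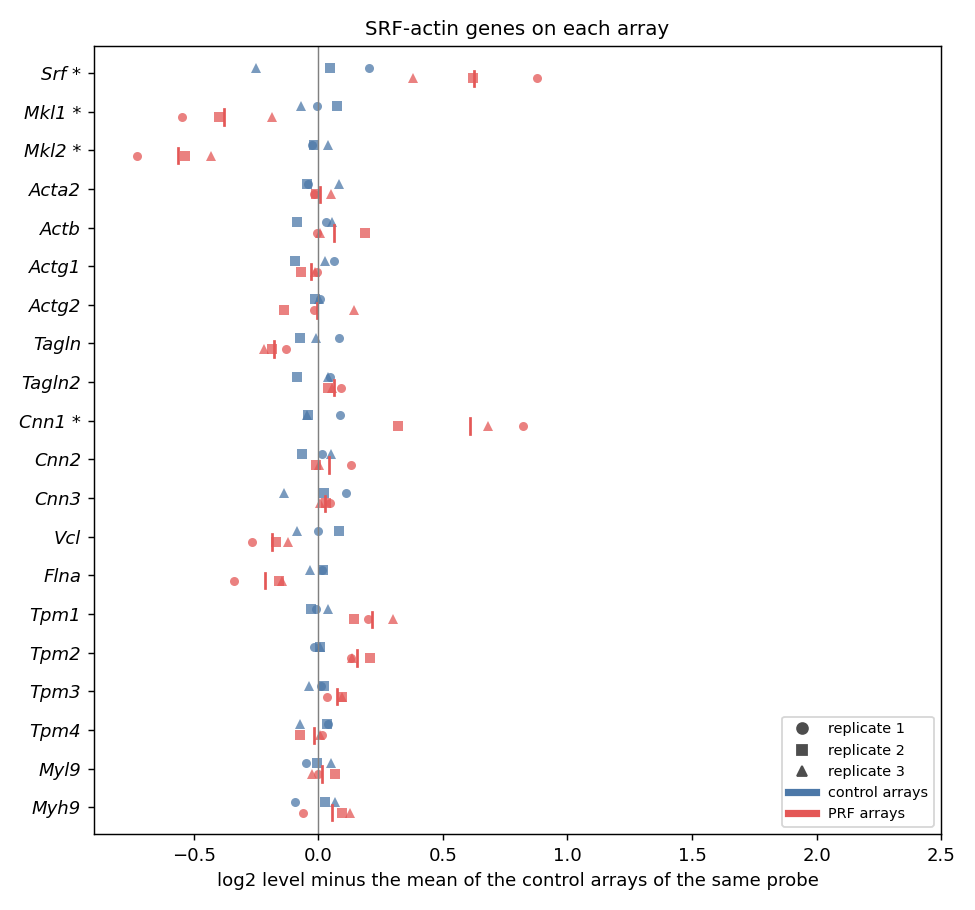
Level of each SRF-actin gene (rows) on each array, as the log2 level minus the mean of the 3 control arrays of the same probe (horizontal axis); symbols are replicates, blue control and red PRF arrays, the red stroke is the PRF mean and an asterisk marks a called gene. Srf and Cnn1 lie to the right and Mkl1 and Mkl2 to the left on the PRF arrays, whereas the control and PRF points of the 4 actins overlap.

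None of the 4 actins, classic SRF targets, was called. Actb, the cytoplasmic beta actin, read 8.37, 8.26 and 8.40 in controls and 8.34, 8.53 and 8.35 after PRF. Acta2, the smooth muscle actin that marks contractile and reactive cells, read 3.77, 3.77 and 3.89, then 3.79, 3.80 and 3.86. Actg1, the cytoplasmic gamma actin, read 6.28, 6.12 and 6.24, then 6.21, 6.14 and 6.20. In all 3 the ranges of the groups overlapped, with Actb highest on PRF 2. Together with Actg2, the enteric gamma actin, the changes on the brightest probes ran from -0.03 to 0.06. Their intervals ran from -0.21 to 0.26 and adjusted p from 0.598 to 0.975, so that differences beyond 1.20-fold lie outside these intervals. A dimmer Acta2 probe changed by 0.22 with a wider interval (-0.42 to 0.87). On spike-in scaling Actg1 was called lower, at -0.22, close to the median of all genes on that scale.

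The transgelins and calponins bind actin filaments and mark contractile cells. Cnn1, the smooth muscle calponin, was the only cytoskeletal gene called on its brightest probe: from -2.89, -3.01 and -3.02 in controls it rose to -2.15, -2.65 and -2.29, by 0.61 (SE 0.14, 0.28 to 0.93, adjusted p = 0.0179), or 1.52-fold. PRF 2 was the nearest to the controls, and the groups did not overlap. The Cnn1 call was lost on the unscaled values (0.47), with quantile normalization (0.42) and without Control 2 or Control 3, and within row 1 the change was 0.30. Cnn2 and Cnn3, the calponins of non-muscle cells, changed by 0.04 (-0.13 to 0.22) and 0.03 (-0.17 to 0.22), and Tagln2 by 0.06 (-0.10 to 0.22). Tagln, a smooth muscle marker also called SM22, read 3.72, 3.57 and 3.63 in controls and 3.51, 3.45 and 3.42 after PRF. Its groups did not overlap, yet its change of -0.18 (-0.35 to -0.01, adjusted p = 0.104) did not pass the test.

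Vinculin and filamin A gave the same kind of small difference. Vcl, which links integrin adhesions to actin, read 4.32, 4.41 and 4.24 in controls and 4.06, 4.15 and 4.20 after PRF (-0.19, interval -0.37 to -0.00, adjusted p = 0.113). Flna, which crosslinks filaments, read 5.61, 5.62 and 5.57, then 5.26, 5.44 and 5.45 (-0.21, -0.40 to -0.03, adjusted p = 0.0796). All PRF arrays of both genes were below all control arrays, as were those of 6 of the 36 genes in all, against 25.6% of tested genes. Flna was called lower in 5 alternatives (-0.40 to -0.23), all of them other scalings or background corrections, and Tagln and Vcl in 2 each.

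Tropomyosins stabilise filaments, and their genes make many transcripts. On the brightest probe Tpm1 changed by 0.21 (0.05 to 0.38, adjusted p = 0.0600), from 3.75, 3.73 and 3.80 to 3.96, 3.91 and 4.07. A second probe, designed on another Tpm1 transcript, rose by 0.71 (SE 0.08, 0.53 to 0.89, adjusted p = 0.0013), from 0.39, 0.27 and 0.31 to 1.10, 0.92 and 1.08. A further probe changed by 0.22 (adjusted p = 0.0901). The 3 probes thus share a direction and differ in size; which transcripts each one reads in these cells was not tested. Tpm2 changed by 0.16 (0.01 to 0.30, adjusted p = 0.0954), Tpm3 by 0.08 (-0.07 to 0.22) and Tpm4 by -0.02 (-0.18 to 0.15). The groups of Tpm1, Tpm2 and Tpm3 did not overlap, and in 12 of the 36 genes all PRF arrays were above all control arrays, against 25.6% of tested genes. Of the myosin genes, Myl9, a regulatory light chain, changed by 0.01 (-0.14 to 0.17) and Myh9, the non-muscle heavy chain IIA, by 0.06 (-0.14 to 0.25). On the brightest probes of the 16 uncalled SRF-actin genes the intervals ran from -0.40 to 0.38. That allows at most 1.30-fold higher and 1.32-fold lower on these probes. Other probes of the same genes reached beyond this range, such as the Tpm1 probe at 0.71 and a Tpm2 probe with an interval of -0.66 to 0.03.

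**Figure D4:**
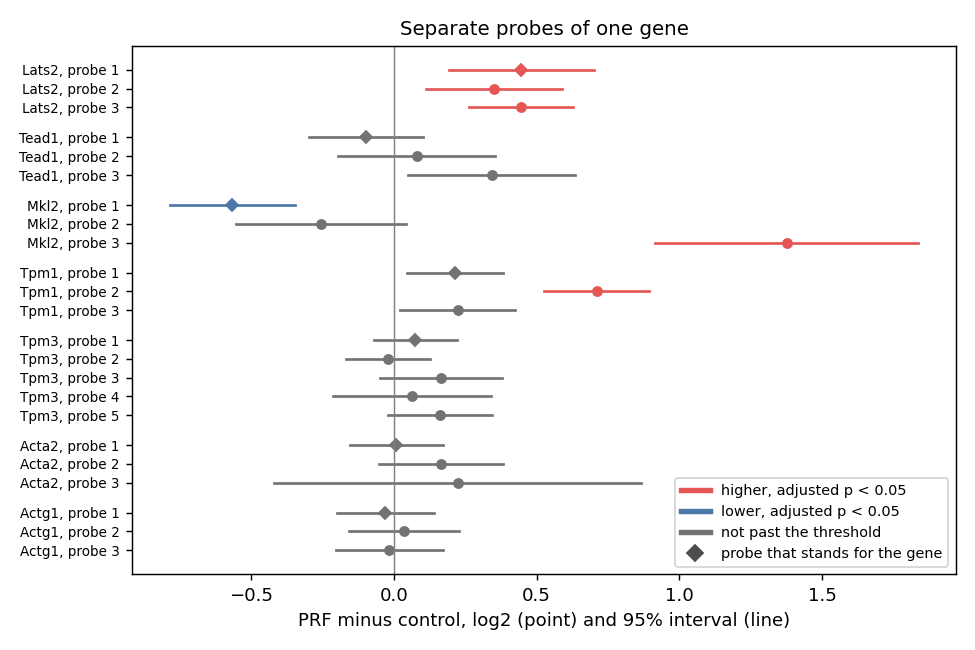
Change (PRF minus control, log2, horizontal axis; point) with 95% confidence interval (line) for each tested probe of the genes with 3 or more of them; a diamond is the probe that stands for the gene, and red, blue and grey mark probes called higher, called lower and not called. The probes of Lats2 lie together above 0, those of Mkl2 fall on both sides of 0, and 1 Tpm1 probe at 0.71 stands above the other probes of that gene.

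In all, 63 probes belonged to the 36 genes and 60 were tested, of which 13 rose and 2 fell. Several tested probes were present for 15 genes, and in 2 of them, Mkl2 and Tpm1, the probes were called differently. Opposite signs without a call also occurred, for example in Lats1 (-0.12 and 0.17), Axl (-0.15 and 0.13), Flna (-0.21 and 0.16) and Tpm2 (0.16 and -0.31). For 19 genes, Ccn1, Ccn2, Amotl2, Ankrd1 and Ajuba among them, there was a single probe and hence no second measurement.

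Promoter windows of the SRF-actin genes are shown for the CArG box, the element that SRF binds, since the genes carrying it can be compared with their changes. Windows were at hand for 17 of the 20 genes, all but Actb, Actg2 and Tagln. The box, searched on both strands, lay in 5 of the 17 (Srf, Actg1, Cnn2, Vcl and Myl9), against 1.51% of tested genes with a window, and in 0 of the 12 YAP-TEAD genes with one. Ccn2 is not among these 12. Only exact matches in the 250 bases before the start were counted, so boxes farther away or with other letters would be missed. The stretches are given 5′ to 3′ on the strand of the gene, with the box in capitals:
Srf, chr17:46556190-46556269, minus strand: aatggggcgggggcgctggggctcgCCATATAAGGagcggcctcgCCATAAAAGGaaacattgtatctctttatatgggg
Actg1, chr11:120348551-120348610, minus strand: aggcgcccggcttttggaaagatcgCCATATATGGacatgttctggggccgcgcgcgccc
Cnn2, chr10:79988519-79988578, plus strand: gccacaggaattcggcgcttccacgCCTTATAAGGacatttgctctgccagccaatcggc
Vcl, chr14:20929148-20929205, plus strand: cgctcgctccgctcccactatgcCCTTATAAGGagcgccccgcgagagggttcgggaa
Myl9, chr2:156775278-156775337, plus strand: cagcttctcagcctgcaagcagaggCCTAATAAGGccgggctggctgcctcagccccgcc
Srf, which holds 2 boxes, rose by 0.63, while Actg1 (-0.03), Cnn2 (0.04), Vcl (-0.19) and Myl9 (0.01) were not called. Cnn1 rose without a box in its window. GGAATG lay in the windows of 6 of the 17 genes on this side, 5 of them uncalled and 1, Mkl2, called lower. The AP-1 element TGANTCA (N is any base, both strands), read for comparison, lay in a window of 0 of the 12 YAP-TEAD genes and of 1 of the 17 SRF-actin genes (Mkl2), against 6.09% of tested genes.

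Other genes of the same pathways were read by list. Of 27 tested regulators of the Hippo pathway 5 rose and 0 fell, with a median change of 0.07; the share of rises, 18.5%, is close to the 16.3% of all tested genes. They include Vgll3 (0.62, SE 0.12, adjusted p = 0.0106) and Vgll4 (0.41, SE 0.09, adjusted p = 0.0198), vestigial-like proteins that bind TEADs in place of YAP, and Rassf1 (0.55, SE 0.10, adjusted p = 0.0084), a scaffold of the MST kinases. The core kinase genes Stk3 (-0.04) and Stk4 (-0.10), their partner Sav1 (-0.11) and the upstream Nf2 (-0.01) were not called, nor was the YAP-binding phosphatase Ptpn14 (-0.22). On unscaled values Vgll3, Vgll4 and Rassf1 were not called either (0.48, 0.27 and 0.41), and Vgll4 was lost without Control 2 or PRF 1.

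A list of 17 further tested YAP targets held 2 that rose (11.8%, below the 16.3% of all genes) and 1 that fell, with a median of 0.04. Dlc1, known as a tumour suppressor, rose by 1.21 (SE 0.18, adjusted p = 0.0039), from -1.69, -1.67 and -1.95 to -0.52, -0.25 and -0.90. Ccdc80, a secreted matrix protein, rose by 0.71 (SE 0.15, adjusted p = 0.0166), a call lost on unscaled values (0.57), with quantile normalization (0.39) and without Control 2, Control 3 or PRF 1. Fjx1, the mouse relative of the fly gene four-jointed, fell by 0.64 (SE 0.10, adjusted p = 0.0048). Nuak2 (0.09), F3 (0.04) and Gadd45a (0.10) were not called.

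Of 9 tested ternary complex factors and SRF partners 3 rose (33.3%, against 16.3% of all genes) and 0 fell, with a median of 0.18. Fhl2, a LIM protein that binds SRF and is one of its targets, rose by 0.58 (SE 0.16, adjusted p = 0.0338), and Cited2, a coactivator-binding protein, by 0.45 (SE 0.07, adjusted p = 0.0053). The Fhl2 call was lost when Control 2, Control 3, PRF 1 or PRF 2 was left out, and the Cited2 call on unscaled values (0.30). Elk1 (0.18), Elk3 (-0.15) and Elk4 (0.03) were not called, and Myocd, the muscle SRF partner, was not well above background on any of the 6 arrays.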

How the data were processed

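Per the file headers, the one-colour arrays were scanned and read with Agilent Feature Extraction 10.7.3.1, and the authors deposited its processed intensity per spot, already background-corrected. A deposited series table holds the same processed intensity values within 0.0001 and served as an alternative. Per the labels' protocols, all RNA had a RIN of at least 9.5. From these files, control and outlier spots were left out, spots of a probe were averaged, and log2 values were taken minus each array's 75th percentile. The test took probes well above background on every array of one group, the other or both (34838 of 56605), in limma 3.58.1 (R 4.3.3), where the model held the group alone, and p-values were adjusted over all these probes by Benjamini-Hochberg; the fit was tested on simulated data. Intervals are 95% confidence intervals of the moderated test, and the number of arrays limits their precision. Probes were named through RefSeq (GRCm38.p6), 32994 of them. Named are the 36 genes, a fixed set of pathway genes, and up to 2 rises and 2 falls per list; 1 further pathway list enters the pathway totals but is not reported here. The genes and lists were chosen with earlier results of these data known. Same-numbered control and PRF arrays deviated together with correlations of 0.15, -0.08 and 0.05, and the numbers were not taken as pairs. Same-numbered arrays always lay in different rows of the slide, so these correlations cannot exclude pairing.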

Additional observations from a re-analysis of the deposited data

How the results depend on the processing

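Leaving out 1 array at a time gave 5 to 7 YAP-TEAD rises, 0 to 2 SRF-actin rises, 1 or 2 SRF-actin falls, 5 to 10 rises and 1 or 2 falls in the pathway lists (12 and 2 with all arrays), and 2452 to 4492 falls over all probes. Within array rows 1 and 2, fits of 3 arrays whose lone array is assumed to vary like the others, 3 and 0 YAP-TEAD genes rose, 0 and 0 SRF-actin genes rose and fell, 1 and 0 pathway genes rose and 1 and 0 fell, and 2672 and 161 probes rose while 537 and 1 fell, against 6415 and 4418. Spike-in scaling gave 3 YAP-TEAD falls (Amotl1, Axl, Tead2), 1 SRF-actin rise and 6 falls, 6 pathway rises and 17 falls, and 11600 probe falls. Unscaled values gave 0 SRF-actin rises, 2 pathway rises and 5 falls, and 4096 probe rises. Quantile normalization gave 1 SRF-actin rise and 7309 probe falls. Scaling on the median gave 4 SRF-actin and 6 pathway falls, and normexp 4 SRF-actin falls. With no filter, 1 SRF-actin gene rose and 1 fell, 1 pathway gene fell and 2805 probes fell. With array row as a block these were 1, 1 and 1, with 7 pathway rises. The replicate block left 1 SRF-actin fall and ended the calls for Wwtr1 (0.29), Mkl1 (-0.38) and Ccn5 (0.31) among named genes. Whether same-numbered arrays are pairs could not be settled. The mean of a gene's probes left 1 SRF-actin fall and turned Mkl2 to 0.19. A further 1.5-fold mark, with adjusted or unadjusted p, left 0 SRF-actin falls, 4 pathway rises and 1 fall, and 1445 or 1566 probe falls. Ccn5 changed by -0.036 under quantile normalization. The causes were not tested. Of the other values, 868 single-gene comparisons kept their side of the threshold, 177 lost a call and 15 gained one. Uncalled genes could change sign within the 868, such as Tead1 (-0.29 to 0.11). Precision is bounded by having 3 arrays in each group, and a single probe stands for 19 of the genes.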

Other observations

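Close relatives of the genes above, listed after values had been seen, gave 4 calls among 21 tested genes, or 19.0%. All were rises, against 16.3% of all tested genes called higher and 29.8% called in either direction. Acta1, the skeletal muscle actin, rose by 1.12 (SE 0.16, adjusted p = 0.0038), from -2.93, -2.96 and -3.15 on the control arrays to -1.58, -1.92 and -2.19 on the PRF arrays. It was thus the only actin called, and its call was missed only within array row 2 (1.07) among 19 alternatives. Gas6, the ligand of Axl, rose by 1.17 (SE 0.26, adjusted p = 0.0176), from -2.33, -2.75 and -2.97 to -1.06, -1.52 and -1.95, while Axl itself was not called; the Gas6 call was lost without Control 2, Control 3 or PRF 2. Enah, an actin filament elongator at adhesions, rose by 0.41 (SE 0.09, adjusted p = 0.0145). It was called in 14 of 19 alternatives (changes of 0.22 to 0.54), and the call was lost without PRF 2 among others. Ccn5 rose by 0.31 (SE 0.09, adjusted p = 0.0401) but was called in only 4 of 19 alternatives and changed by -0.036 with quantile normalization. Ccn4 (0.33, adjusted p = 0.131), Ankrd2 (0.31, adjusted p = 0.0694) and Ankrd23 (-0.26, adjusted p = 0.110) were not called.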
